A study of Mus musculus with 8 samples.

Results

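The chaperone BiP, the chaperone GRP94 and 8 co-chaperones and partner proteins in the lumen of the endoplasmic reticulum (ER) were followed as a group of 10 genes, out of 27534 in the deposited table. The genes, Hspa5, Hsp90b1, Hyou1, Sil1, Dnajb9, Dnajb11, Dnajc3, Sdf2l1, Creld2 and Manf, were chosen by symbol for their role. They and the other gene lists were chosen with earlier results of these data known, so their counts beside all genes are descriptive. All 10 passed the filter on low counts. The islets, the endocrine clusters of the pancreas, came from C57BL/6J mice and spent 72 h in RPMI 1640 medium with 10% FBS and 1 mM HEPES. The high glucose (HG) group had 20 mM glucose in this medium and the low glucose (LG) group 7.5 mM, with 4 RNA sequencing libraries each. The series concerns IRE1α, an ER stress sensor, and the size of the Golgi in early β-cell compensation. The labels give no age or sex of the mice and do not say whether a library stands for 1 animal, a pool or a separate culture, so p-values measure only the spread between these libraries.

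BiP is the HSP70 of the ER lumen: it binds unfolded chains with ADP bound and lets go of them with ATP. J-domain proteins bring clients to BiP and trigger ATP hydrolysis, and nucleotide exchange factors reset it by releasing ADP. GRP94, the HSP90 of the same compartment, takes over a narrower set of clients. β cells fold large amounts of proinsulin there, and when unfolded proteins accumulate, the sensors IRE1α, PERK and ATF6 start the unfolded protein response (UPR), of which many of these genes are textbook targets.

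All 10 genes rose in HG islets, with fold changes between 1.44 (Sil1) and 2.55 (Sdf2l1). Their median log2 fold change (HG over LG) was 0.91, beside -0.01 over all 15442 genes tested. By edgeR's quasi-likelihood test at an adjusted p under 0.05, 10 of 10 genes passed as higher in HG, against 13.1% of all genes tested. In each of the 10, every HG library stood above every LG library, as was so for 13.7% of all genes tested. Together the 10 genes took 0.674% to 0.713% of all counts in HG libraries and 0.391% to 0.403% in LG libraries. These are levels in bulk tissue, in which fewer cells of a type and less RNA per cell cannot be told apart.

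**Figure D1:**
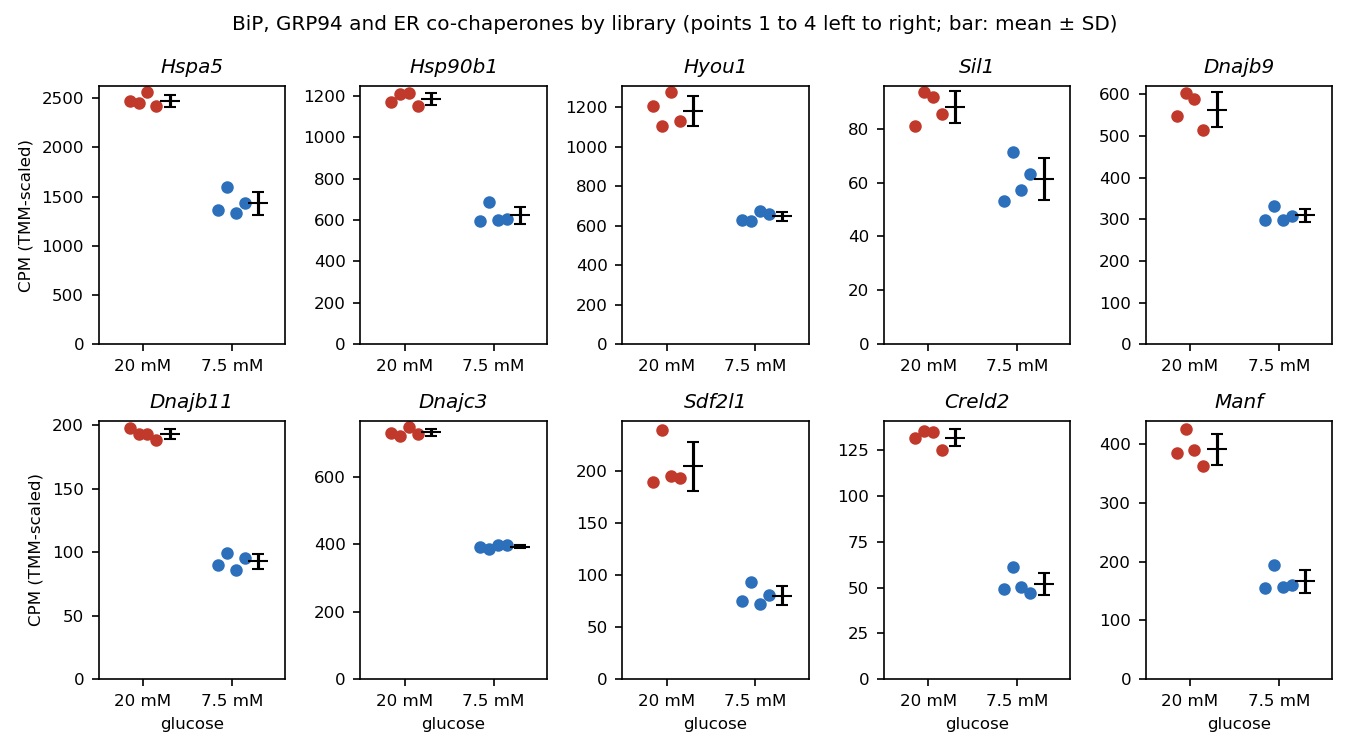
Level of the 10 genes in CPM (counts scaled to a common library size, axes from 0) in islets with 20 mM glucose (HG, red, left) and 7.5 mM glucose (LG, blue, right), 1 point per library (replicates 1 to 4 from left to right), with the mean ± SD of 4 libraries as a bar. No gene's groups overlap; the gap is narrowest for Sil1, where the lowest HG library was 1.14 times the highest LG library, and widest for Creld2, at 2.06 times.

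Many UPR targets carry an ER stress response element (ERSE), a CCAAT box followed 9 bases later by CCACG, near the transcription start. The RefSeq promoter windows of build GRCm38.p6, from 250 bases before to 50 after each gene's start, were searched on both strands for the ERSE, for ERSE-II (ATTGG, 1 base of any kind, CCACG), for the UPR element TGACGTGG and for the amino acid response element TGATGNAAN. Of the 10 genes, 7 were matched to a window, and 4 of these 7 held an ERSE, beside 0.119% of all 32851 windows. Dnajb11 held an ERSE-II, beside 0.0365% of all windows. The UPR element (0.676% of all windows) and the amino acid response element (3.95%) were in none of the 7, and no 2 of the sites found overlapped. Distances are from the RefSeq start, which for Hspa5, Hsp90b1 and Dnajb9 lies inside the gene bounds of the deposited table. The Hspa5 site and the whole Dnajb9 window therefore fall within those bounds. The Hsp90b1 sites lie outside them, while the upstream bases nearest its RefSeq start lie within. Only exact matches of the fixed bases were searched for, so a site that differs at a fixed base was not counted. A match describes letters in a window and does not show that a factor binds there. The sites are shown in motif orientation to let their variable middle bases be compared. The fixed bases of each ERSE are in capitals, and the ERSE-II is in capitals throughout, its free base included.
Hspa5 site, 65 to 47 bases before the start (chr2:34772025-34772043): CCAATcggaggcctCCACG
Hsp90b1 far site, 212 to 194 bases before the start (chr10:86705638-86705656): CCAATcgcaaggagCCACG
Hsp90b1 near site, 107 to 89 bases before the start, on the opposite strand (chr10:86705533-86705551): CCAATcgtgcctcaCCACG
Dnajc3 site, 105 to 87 bases before the start (chr14:118937827-118937845): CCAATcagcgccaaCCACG
Creld2 site, 126 to 108 bases before the start, on the opposite strand (chr15:88819520-88819538): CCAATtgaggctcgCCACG
Dnajb11 ERSE-II, 7 to 17 bases after the start (chr16:22857852-22857862): ATTGGCCCACG

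The 250 bases upstream of 4 starts are printed for their contrast in exact matches. They hold 1 ERSE in Hspa5, a pair in Hsp90b1 and 1 on the opposite strand in Creld2. Sdf2l1, the gene with the largest fold change, holds no exact match. Each stretch is on the gene's own strand, with the fixed ERSE bases in capitals. An element on the opposite strand reads as its reverse complement. Hspa5 lies at chr2:34771840-34772089 (plus strand), Hsp90b1 at chr10:86705445-86705694 (minus), Creld2 at chr15:88819396-88819645 (plus) and Sdf2l1 at chr16:17132384-17132633 (minus).
Hspa5: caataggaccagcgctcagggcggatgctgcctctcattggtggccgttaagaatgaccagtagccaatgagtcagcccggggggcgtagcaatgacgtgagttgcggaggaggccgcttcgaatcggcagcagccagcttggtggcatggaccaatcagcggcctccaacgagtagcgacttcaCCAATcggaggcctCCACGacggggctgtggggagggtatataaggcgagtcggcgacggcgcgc
Hsp90b1: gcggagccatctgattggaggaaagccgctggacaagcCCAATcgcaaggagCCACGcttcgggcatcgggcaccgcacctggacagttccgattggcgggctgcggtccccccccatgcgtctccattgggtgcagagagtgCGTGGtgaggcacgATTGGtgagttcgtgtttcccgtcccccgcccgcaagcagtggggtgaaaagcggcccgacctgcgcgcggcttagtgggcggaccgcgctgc
Creld2: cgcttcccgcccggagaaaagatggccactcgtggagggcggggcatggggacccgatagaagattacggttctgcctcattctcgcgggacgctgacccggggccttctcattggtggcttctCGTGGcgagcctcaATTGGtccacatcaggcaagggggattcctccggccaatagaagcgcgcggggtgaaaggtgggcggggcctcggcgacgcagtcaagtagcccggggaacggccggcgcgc
Sdf2l1: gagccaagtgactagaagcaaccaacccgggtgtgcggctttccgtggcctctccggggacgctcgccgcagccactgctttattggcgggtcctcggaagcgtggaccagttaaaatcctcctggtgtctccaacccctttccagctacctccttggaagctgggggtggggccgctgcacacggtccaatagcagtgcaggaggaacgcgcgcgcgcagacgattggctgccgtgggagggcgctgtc

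Genes with and without an exact match to an element had fold changes in the same range. The 5 with an ERSE or ERSE-II had log2 fold changes from 0.79 (Hspa5) to 1.35 (Creld2), and the other 2 had 0.86 (Dnajb9) and 1.35 (Sdf2l1). For Dnajb9 the bases upstream of the gene's bounds in the deposited table were not searched. Outside the 10 genes, 4 of 12 ER folding and degradation genes held an ERSE (Pdia6, Calr, Canx and Syvn1) and Herpud1 held an ERSE-II. Of these, Canx, the membrane-bound lectin calnexin, did not pass the test (log2 fold change 0.08, 95% interval -0.08 to 0.24, adjusted p = 0.450). No ERSE, ERSE-II or UPR element was found in the 17 windows of cytosolic or the 7 of mitochondrial chaperone genes, beside 0.822% of all windows that hold any of the 3, so this absence is near the background.

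**Figure D2:**
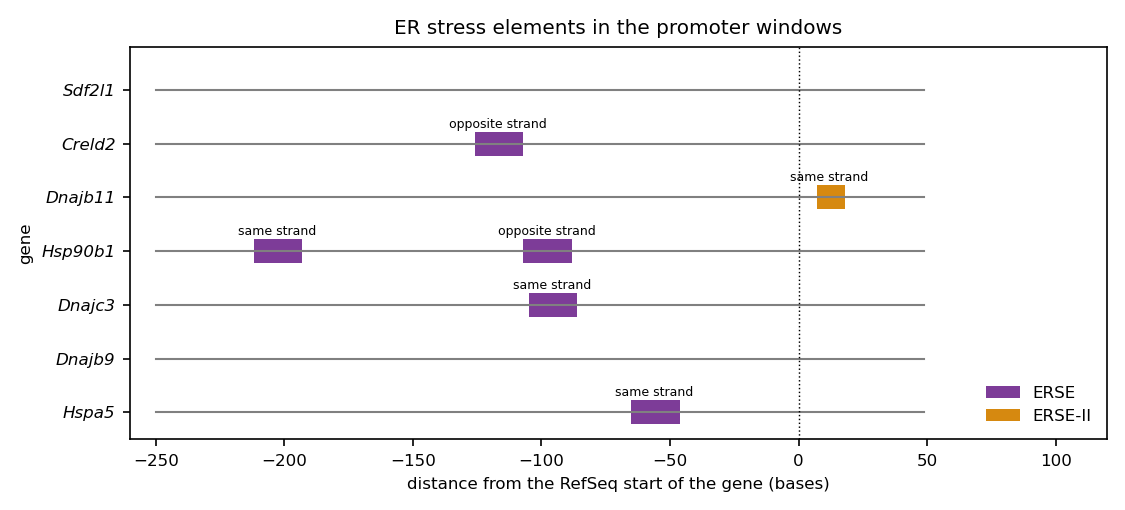
Position of each element in bases from the RefSeq start (x axis, dotted line at the start) for the 7 genes with a promoter window, drawn as a grey line. Blocks are to scale, purple for the ERSE and orange for ERSE-II, with the strand written above. Hsp90b1 has 2 exact matches, Hspa5, Dnajc3, Creld2 and Dnajb11 have 1, and Dnajb9 and Sdf2l1 have none.

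Hspa5 encodes BiP itself (ENSMUSG00000026864, chr2:34771970-34777547, plus strand, GRCm38 as in the deposited table). Its level was 2466, 2454, 2561 and 2419 CPM in the 4 HG libraries and 1360, 1597, 1336 and 1431 CPM in the 4 LG libraries. The lowest HG library was 1.51 times the highest LG library, and the LG libraries spread more widely than the HG libraries. The mean was 2475 ± 60.8 CPM in HG and 1431 ± 118 CPM in LG (SD, n = 4 each). The log2 fold change was 0.79 (SE 0.08, 95% interval 0.61 to 0.97, edgeR adjusted p = 7.9e-05), a 1.73-fold rise. This was the second smallest fold change of the 10 genes.

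Hsp90b1 encodes GRP94 (ENSMUSG00000020048, chr10:86690209-86705509, minus strand), whose clients include integrins and Toll-like receptors. It had 1170, 1209, 1213 and 1149 CPM in HG libraries and 596, 685, 602 and 607 CPM in LG libraries. The other 3 LG libraries lay close together, and LG replicate 2 lay above them, still far below every HG library. The rise was 1.90-fold (log2 fold change 0.93, SE 0.07, interval 0.76 to 1.10, adjusted p = 1.9e-05). Of its 4032 exon bases, 415 also belong to a pseudogene on the opposite strand, 1810014B01Rik, which averaged 128 counts per library. On its own strand, 133 also belong to the microRNA gene Gm25745 and 84 to Gm15344, which averaged 17 counts per library.

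The nucleotide exchange factors Hyou1 and Sil1 rose by unequal amounts. Hyou1 (ENSMUSG00000032115, chr9:44379490-44392369, plus strand) encodes GRP170, a large HSP70 relative that both exchanges nucleotide on BiP and binds unfolded chains. Its level was 1205, 1107, 1276 and 1133 CPM in HG libraries and 631, 623, 676 and 660 CPM in LG libraries, with no overlap. The fold change was 1.82 (log2 0.87, SE 0.08, interval 0.70 to 1.04, adjusted p = 3.3e-05). Sil1 (ENSMUSG00000024357, chr18:35266400-35498925, minus strand), the smaller exchange factor, whose loss causes Marinesco-Sjögren syndrome in people, had the smallest rise. It had 81.1, 93.7, 91.7 and 85.6 CPM in HG libraries and 53.2, 71.2, 57.3 and 63.3 CPM in LG libraries. HG replicate 1 and LG replicate 2 came within 1.14 times of each other. Its fold change was 1.44 (log2 0.52, SE 0.10, interval 0.31 to 0.74, adjusted p = 0.00262).

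The J-domain proteins Dnajb9, Dnajb11 and Dnajc3 stimulate BiP's ATPase. Dnajb9 (ERdj4; ENSMUSG00000014905, chr12:44205559-44210326, minus strand), which in hamster cells brings BiP to IRE1α and holds that sensor inactive, had 547, 603, 589 and 513 CPM in HG libraries. Its level in LG libraries was 298, 332, 299 and 309 CPM, and the rise was 1.82-fold (log2 0.86, SE 0.08, interval 0.69 to 1.04, adjusted p = 4.0e-05). Dnajb11 (ERdj3; ENSMUSG00000004460, chr16:22857845-22879634, plus strand) binds unfolded chains and hands them to BiP. It had 198, 193, 193 and 188 CPM in HG libraries and 89.5, 99.6, 86.1 and 95.1 CPM in LG libraries. The lowest HG library was 1.89 times the highest LG library, and the rise was 2.08-fold (log2 1.06, SE 0.07, interval 0.91 to 1.21, adjusted p = 6.1e-06). Dnajc3 (p58IPK or ERdj6; ENSMUSG00000022136, chr14:118937976-118981697, plus strand) also binds clients, and mice without it lose β cells. It had 729, 722, 747 and 726 CPM in HG libraries and 391, 387, 397 and 396 CPM in LG libraries. The libraries of each group lay close together, and the fold change was 1.86 (log2 0.90, SE 0.06, interval 0.75 to 1.04, adjusted p = 9.9e-06).

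The 3 remaining genes had the largest fold changes. Sdf2l1 (ENSMUSG00000022769, chr16:17130138-17132383, minus strand) encodes a partner of ERdj3 that keeps it and its clients from aggregating. Its level was 189, 240, 196 and 194 CPM in HG libraries and 74.9, 93.3, 72.1 and 81.2 CPM in LG libraries. In both groups replicate 2 was the highest, and HG replicate 2 stood apart from the other HG libraries. The rise was 2.55-fold (log2 1.35, SE 0.11, interval 1.11 to 1.59, adjusted p = 1.7e-05). Creld2 (ENSMUSG00000023272, chr15:88819646-88826683, plus strand), an ER protein with EGF-like repeats that is partly secreted, had 132, 135, 135 and 125 CPM in HG libraries. In LG libraries it had 49.1, 60.9, 50.04 and 47.2 CPM, and the rise was 2.54-fold (log2 1.35, SE 0.09, interval 1.15 to 1.54, adjusted p = 6.1e-06). Manf (ENSMUSG00000032575, chr9:106838312-106891979, minus strand) encodes a small BiP-binding protein that slows nucleotide exchange, is secreted under ER stress and is needed to keep β cells in mice. It had 384, 426, 390 and 363 CPM in HG libraries and 155, 195, 156 and 160 CPM in LG libraries, a 2.35-fold rise (log2 1.23, SE 0.09, interval 1.02 to 1.44, adjusted p = 1.5e-05). Manf shares 166 of its 3524 exon bases with the antisense gene 4930524O07Rik, 146 with Dcaf1 on the opposite strand and 14 with Rbm15b. The strand setting of the counting is not given in the sources used here, so a few Manf reads may be theirs.

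Per gene length, BiP led in both groups. Hspa5 averaged 579 ± 17.5 FPKM (a read density scaled to gene length and library total) in HG and 330 ± 27.1 FPKM in LG (SD, n = 4 each). The gene length is a fixed value in the deposited table, not the length of the transcripts present. Orders and shares between genes depend on it, while the comparison of HG with LG for the same gene does not. Hsp90b1 followed with 291 ± 8.25 FPKM in HG and 151 ± 9.88 FPKM in LG, and Dnajb9 with 219 ± 16.0 FPKM in HG and 118 ± 6.07 FPKM in LG. The other J-proteins were lower, Dnajc3 at 141 ± 3.08 FPKM in HG and 74.5 ± 1.34 FPKM in LG, and Dnajb11 at 59.0 ± 1.23 FPKM in HG and 27.9 ± 1.87 FPKM in LG. Hyou1 had 162 ± 11.3 FPKM in HG and 87.3 ± 3.69 FPKM in LG, against 51.4 ± 3.43 FPKM in HG and 35.2 ± 4.55 FPKM in LG for the other exchange factor, Sil1. Sdf2l1 had 183 ± 20.4 FPKM in HG and 70.7 ± 8.31 FPKM in LG, which made it the fourth highest of the 10 in HG and the sixth in LG. Manf averaged 110 ± 6.98 FPKM in HG and 46.1 ± 5.22 FPKM in LG, and Creld2 95.5 ± 3.47 FPKM in HG and 37.0 ± 4.27 FPKM in LG. In HG this order held within each of the 4 libraries, and over libraries the range of Sdf2l1 overlapped those of Dnajb9 and Hyou1. In LG the ranges of Dnajc3 and Sdf2l1, of Manf and Creld2, and of Creld2 and Sil1 overlapped. Dnajb11 was the lowest of the 10 in LG and Sil1 the lowest in HG. The deposited length of Sil1 is 1695 bases, beside 3436 exon bases in the GENCODE M21 annotation. Its place among the 10 depends on which length is used.

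The summed FPKM of the 10 genes was 1816 to 1957 in HG libraries and 928 to 1065 in LG libraries. Hspa5 made up 29.6% to 31.2% of that sum in HG and 32.9% to 34.4% in LG, so that its share was smaller in every HG library while its level was higher. Of the gain in summed FPKM, 27.3% came from Hspa5, 15.4% from Hsp90b1, 12.3% from Sdf2l1 and 11% from Dnajb9. Sil1 gave the least, 1.77%.

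The balance between BiP and its partners was tested with Hspa5's own count in place of the library size, which needs no library scaling. In this fit, 4 of the other 9 genes rose more than Hspa5, against 2.3% of all 15441 genes in the fit, and 1 rose less, against 77.8% that rose less or fell. Sdf2l1 stood at 29.3%, 37.4%, 29.2% and 30.6% of Hspa5's FPKM in HG libraries and at 21.0%, 22.3%, 20.6% and 21.7% in LG libraries. Its ratio to Hspa5 was higher by 0.56 on the log2 scale (SE 0.09, interval 0.36 to 0.77, edgeR adjusted p = 0.000228). Creld2 was at 16.5%, 17.1%, 16.3% and 16.0% of Hspa5 in HG libraries and 11.2%, 11.8%, 11.6% and 10.2% in LG libraries, also 0.56 higher on the log2 scale (SE 0.07, adjusted p = 4.4e-05). Manf averaged 19.0 ± 1.27% of Hspa5 in HG and 13.9 ± 0.54% in LG (log2 ratio change 0.44, SE 0.08, adjusted p = 0.000322). Dnajb11 averaged 10.2 ± 0.26% in HG and 8.46 ± 0.24% in LG (0.27, SE 0.07, adjusted p = 0.00342). These 4 ratios did not overlap between the groups. Such a separation upward was seen for the Hspa5 ratio of 1.99% of all genes.

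Sil1 was the gene that rose less than BiP. It was at 8.21%, 9.53%, 8.94% and 8.83% of Hspa5 in HG libraries and 9.76%, 11.1%, 10.7% and 11.03% in LG libraries. The log2 ratio change was -0.26 (SE 0.08, interval -0.43 to -0.09, adjusted p = 0.0091), and its ratios did not overlap, as was so downward for 70.1% of all genes. For the other 4 genes a difference from Hspa5's rise was not detected. Hsp90b1 came nearest, at 50.2 ± 0.96% of Hspa5 in HG and 45.7 ± 1.22% in LG, without overlap (log2 ratio change 0.14, interval -0.02 to 0.29, adjusted p = 0.0883). The intervals were -0.14 to 0.27 for Hyou1, -0.10 to 0.24 for Dnajb9 and -0.08 to 0.28 for Dnajc3.

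**Figure D3:**
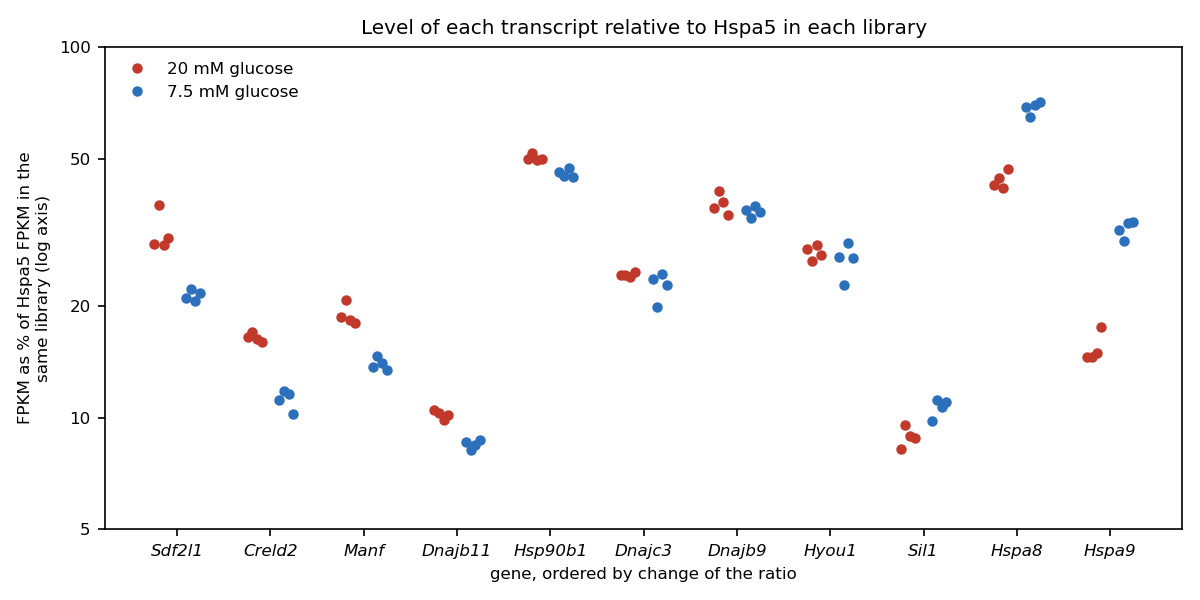
FPKM of each gene as a percentage of the Hspa5 FPKM in the same library (log axis), with 20 mM glucose (HG, red) left of 7.5 mM glucose (LG, blue) and 1 point per library. Every HG point lies above every LG point for Sdf2l1, Creld2, Manf, Dnajb11 and Hsp90b1 and below for Sil1, Hspa8 and Hspa9, while the groups overlap for Dnajc3, Dnajb9 and Hyou1.

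The same chaperone families have members in other compartments, which were read against their ER relatives. Hspa8, the constitutive cytosolic HSP70, averaged 1103 ± 39.2 CPM in HG and 996 ± 52.1 CPM in LG (log2 fold change 0.15, interval -0.01 to 0.31, adjusted p = 0.176; 0.0468 with the replicate number as a block). Hspa9, the mitochondrial HSP70, fell, with 354 ± 29.0 CPM in HG and 429 ± 21.3 CPM in LG (-0.28, interval -0.46 to -0.10, adjusted p = 0.028). That call was lost without any one of HG replicates 1, 2 and 3 or LG replicate 4 (adjusted p 0.0653 to 0.0923) and with no filter on low counts (0.0511). Against Hspa5, Hspa8 changed by -0.65 (adjusted p = 2.3e-05) and Hspa9 by -1.07 (2.9e-06) on the log2 scale. Per length, Hspa8 stood at 43.8 ± 2.35% of BiP in HG and 68.6 ± 2.78% in LG.

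The cytosolic HSP90 genes were set against GRP94 in the same way. Hsp90aa1 had 478 ± 18.0 CPM in HG and 465 ± 12.0 CPM in LG (0.04, interval -0.11 to 0.19, adjusted p = 0.711). Hsp90ab1 had 1074 ± 62.8 CPM in HG and 1151 ± 76.8 CPM in LG (-0.10, interval -0.28 to 0.08, adjusted p = 0.407). Trap1, the mitochondrial HSP90, fell to 39.0 ± 1.78 CPM in HG, against 48.6 ± 1.45 CPM in LG (-0.32, interval -0.46 to -0.18, adjusted p = 0.00387). Relative to Hsp90b1 the 3 genes changed by -0.89, -1.03 and -1.25 (adjusted p = 1.8e-06, 1.2e-06 and 3.4e-07). Hsp90ab1 was at 122 ± 9.48% of Hsp90b1's FPKM in HG and 249 ± 13.7% in LG.

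Hyou1's cytosolic relatives are the HSP110 genes Hspa4, Hspa4l and Hsph1, which exchange nucleotide on cytosolic HSP70. Their own log2 fold changes were 0.10 (interval -0.04 to 0.24), -0.03 (-0.19 to 0.12) and 0.08 (-0.05 to 0.22), with adjusted p of 0.270, 0.769 and 0.372. Relative to Hyou1 they changed by -0.76, -0.90 and -0.78 (adjusted p = 4.6e-06, 1.8e-06 and 2.7e-06). Relative to its ER relative, each of the 8 counterparts was lower in HG. The background is high: 77.8% of all genes were lower relative to Hspa5, 82.4% relative to Hsp90b1 and 80% relative to Hyou1.

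Of 16 further ER J-proteins and partners of BiP and GRP94, 9 rose and 7 did not pass (median log2 fold change 0.34), where 13.1% of all genes tested rose. Without LG replicate 3 or 4 the count that rose was 5, where 10.4% or 10.2% of all genes rose. Hspa13, an ER-associated HSP70-like ATPase, had 260 ± 11.1 CPM in HG and 141 ± 4.07 CPM in LG (log2 fold change 0.88, adjusted p = 1.3e-05). Ficd, which adds AMP to BiP and removes it again, had 101 ± 6.10 CPM in HG and 69.9 ± 0.85 CPM in LG (0.54, adjusted p = 0.00023). Dnajc10 (ERdj5), a J-protein with disulfide reductase activity, had 226 ± 10.1 CPM in HG and 161 ± 3.61 CPM in LG (0.49, adjusted p = 0.00037). Sec63, the J-protein of the translocon, had 223 ± 8.06 CPM in HG and 171 ± 11.3 CPM in LG (0.38, adjusted p = 0.00285).

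Of 12 ER folding enzymes, lectins and degradation genes, 10 rose and 2 did not pass (median 0.67), against 13.1% of all genes tested that rose. The disulfide isomerases were in the lead, P4hb with 1841 ± 77.2 CPM in HG and 908 ± 71.4 CPM in LG (log2 fold change 1.02) and Pdia6 with 922 ± 42.4 CPM in HG and 445 ± 45.1 CPM in LG (1.05). Pdia4 rose by 0.82 and Syvn1, the ubiquitin ligase HRD1 of ER-associated degradation, by 0.66 on the log2 scale. The KDEL receptors retrieve ER proteins that end in KDEL, such as BiP and GRP94, from the Golgi, and all 3 rose, against the same 13.1%. Kdelr3 had 19.6 ± 2.20 CPM in HG and 7.73 ± 0.51 CPM in LG (1.34, adjusted p = 2.2e-05), while Kdelr1 (0.60) and Kdelr2 (0.72), the more abundant of the 3, rose less.

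Of 7 UPR sensors and transcription factors, 4 rose and 3 did not pass (median 0.27), where 13.1% of all genes tested rose. Without HG replicate 3 or LG replicate 1 the count that rose was 2, where 10.7% or 10.3% of all genes rose. Xbp1, whose mRNA IRE1α splices, had 389 ± 16.0 CPM in HG and 303 ± 16.9 CPM in LG (log2 fold change 0.36, adjusted p = 0.00418); gene counts do not separate spliced from unspliced Xbp1. Atf4, translated when PERK is active, had 421 ± 31.5 CPM in HG and 291 ± 28.8 CPM in LG (0.53, adjusted p = 0.00178). Atf6b had 99.4 ± 3.34 CPM in HG and 82.4 ± 5.52 CPM in LG (0.27, adjusted p = 0.0153), and its adjusted p was 0.0502 to 0.0553 without HG replicate 3, LG replicate 1 or LG replicate 4. Eif2ak3, which encodes PERK, had 134 ± 22.5 CPM in HG and 98.7 ± 17.6 CPM in LG (0.44, adjusted p = 0.0479), a call lost without any one of 6 of the 8 libraries and at 0.142 by library size alone. Ern1, which encodes IRE1α, had 253 ± 22.5 CPM in HG and 257 ± 43.4 CPM in LG (-0.02, interval -0.30 to 0.25, adjusted p = 0.913). Atf6 had a log2 fold change of 0.19 (interval -0.06 to 0.44, adjusted p = 0.255; 0.0112 with the block). Ddit3 (CHOP), a factor of ER stress-induced apoptosis, had 23.3 ± 3.13 CPM in HG and 28.0 ± 1.22 CPM in LG (-0.26, interval -0.48 to -0.04, adjusted p = 0.078; 0.0183 with the block and 0.0207 by library size alone).

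Outside the ER the chaperone lists had medians close to that of all genes (-0.01). Of 20 cytosolic HSP70, HSP90 and HSP110 genes and co-chaperones, 2 rose, 1 fell and 17 did not pass (median 0.03), beside the 13.1% of all genes tested that rose and the 11.9% that fell. The 2 that rose were the HSP70 exchange factors Bag2, with 31.1 ± 3.47 CPM in HG and 13.9 ± 0.49 CPM in LG (1.16, adjusted p = 1.7e-05), and Bag3 (0.40, adjusted p = 0.00529). Hspa2 fell by 0.45 on the log2 scale (adjusted p = 0.00686). Of 10 mitochondrial genes, 3 fell (Hspa9, Trap1 and Hscb) and 7 did not pass (median -0.10). Hscb, a J-protein of iron-sulfur cluster assembly, had a log2 fold change of -0.51 (adjusted p = 0.0284), a call lost without any one of 6 libraries.

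**Figure D4:**
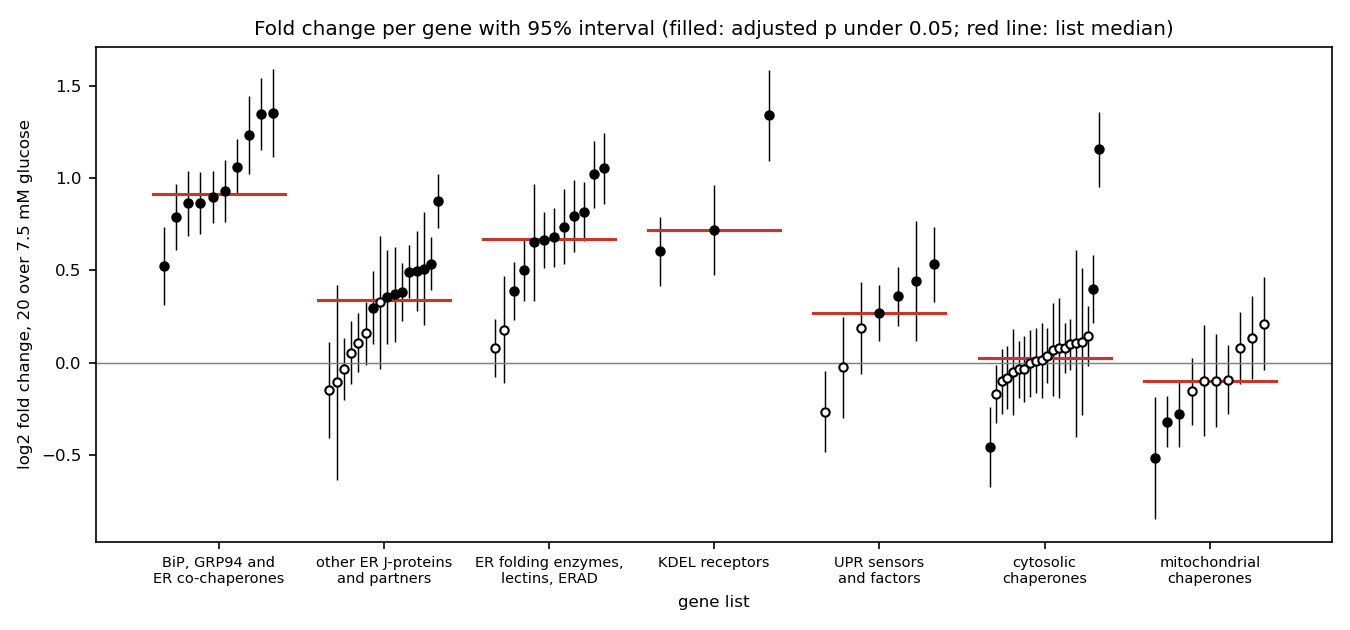
Log2 fold change (HG over LG) of every gene in 7 lists, 1 point per gene with its 95% interval, and the list median as a red line; filled points passed the edgeR test at an adjusted p of 0.05. The 10 genes lie between 0.52 and 1.35, with a median of 0.91, while the medians of the cytosolic and mitochondrial lists are 0.03 and -0.10.

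Among 7165 genes with a mean of at least 20 CPM, likeness to Hspa5 was measured as the root mean square difference of log2 CPM, centred on each gene's mean, over the 8 libraries. The 5 most alike were Syp (0.0425), Pdia4 (0.0460), Glb1 (0.0503), Kcnk1 (0.0520) and Ufm1 (0.0523), beside a median of 0.439. Syp encodes the vesicle membrane protein synaptophysin, Glb1 the lysosomal β-galactosidase, Kcnk1 a potassium channel and Ufm1 a ubiquitin-like modifier. Of the other 9 genes, Dnajb9 ranked 14 and Hsp90b1 ranked 21 in this measure, and Creld2 (1120) and Sdf2l1 (1254) ranked last. The groups drive much of this likeness, since a gene with a fold change near that of Hspa5 scores well.

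Within a group, the 10 genes tended to deviate in the same libraries. HG replicate 3 lay above its group mean in 9 of the 10 genes and HG replicate 4 in 0. LG replicate 2 lay above its group mean in 8 genes, by a median of 0.15 on the log2 scale, and LG replicate 1 in 0. The exceptions in LG replicate 2 were Hyou1 and Dnajc3, which have the longest gene lengths of the 10 (7230 and 5141 bases). Whether gene length has a part in these deviations was not tested. Libraries share their depth scaling across genes, and the share of all genes that deviated likewise was not computed, so these counts are a description.

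The islets carried RNA of other pancreatic cells in amounts that differed between libraries. Summed over 23 acinar markers, digestive enzymes for the most part, the level was 14327, 4954, 5046 and 26201 CPM in HG libraries and 11066, 4551, 1791 and 14996 CPM in LG libraries. It was higher in HG in each of the 4 same-numbered pairs, the ranges overlapped, and no marker was at 0 in all libraries. The most abundant, Ctrb1 and Try5, averaged 4296 ± 3245 and 1502 ± 1106 CPM in HG and 2628 ± 1883 and 918 ± 701 CPM in LG. With the log2 acinar level as a covariate all 10 genes still passed, and the log2 fold change of Hspa5 remained 0.79. The acinar level went in part with the group, so this fit cannot fully separate acinar RNA from glucose. In the 2 HG and 2 LG libraries with the least acinar RNA, a subset chosen after seeing the data, 8 of 10 passed; Hspa5 had the same 0.79 at an adjusted p of 0.0626 and Sil1 0.55 at 0.137. In that subset 2.06% of all genes tested passed as higher in HG, and 4 of 12 ER folding and degradation genes, 1 of 16 further partners and 1 of 3 KDEL receptors did; the 4 UPR genes that rose over all 8 libraries had adjusted p of 0.123 to 0.436 there. Relative to Hspa5, Sdf2l1 and Creld2 still passed there, while the adjusted p was 0.074 for Manf, 0.236 for Dnajb11 and 0.301 for Sil1. Of the 22 acinar markers tested, 1 passed, Bhlha15, a transcription factor gene (104 ± 5.91 CPM in HG, 51.5 ± 4.07 CPM in LG), which was picked out after its values were seen.

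**Figure D5:**
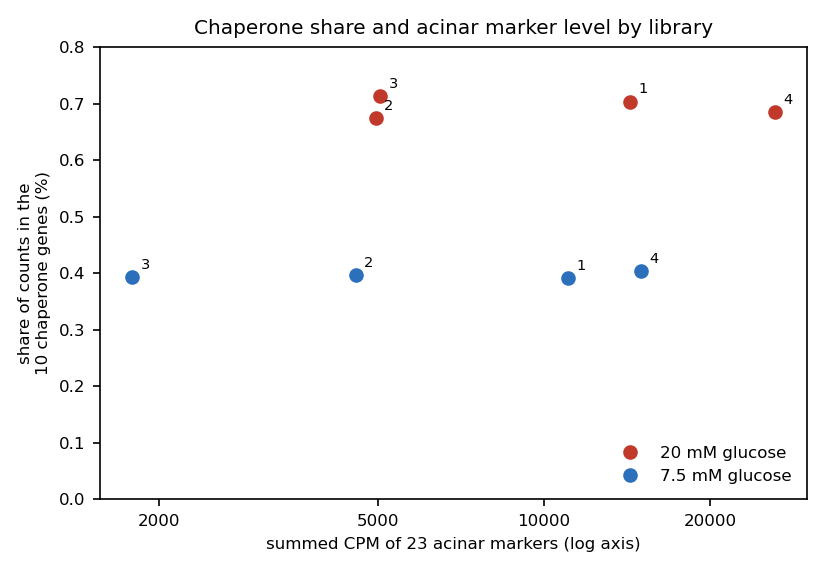
Share of all counts in the 10 genes (y axis, percent, from 0) against the summed level of the acinar markers (x axis, CPM, log scale), with HG libraries in red, LG libraries in blue and replicate numbers beside the points. The share was 0.674% to 0.713% in HG libraries and 0.391% to 0.403% in LG libraries, over acinar levels of 4954 to 26201 CPM in HG and 1791 to 14996 CPM in LG.

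Other cell types were checked in the same way. The summed level of 8 β-cell markers was 205130 to 271000 CPM in HG and 185450 to 265800 CPM in LG, with Ins2 and Ins1 the most abundant, as befits islets; Iapp rose and Mafa, Slc2a2 and Ucn3 fell. The α-, δ- and PP-cell markers (led by Gcg and Sst) summed to 15661 to 30052 CPM in HG and 17079 to 35212 CPM in LG, and the duct markers (led by Krt7 and Spp1) to 580 to 602 CPM in HG and 446 to 562 CPM in LG; of the duct markers, Spp1 rose. The β-cell and duct sums, like the acinar sum, were higher in HG in 4 of 4 same-numbered pairs. The duct sums did not overlap between the groups, but Krt7, the most abundant duct marker, did not share this separation. Krt7 averaged 270 ± 22.2 CPM in HG and 278 ± 19.6 CPM in LG and did not pass. Spp1 averaged 244 ± 6.52 CPM in HG and 154 ± 56.1 CPM in LG. The fibroblast markers (led by Col1a1 and Col3a1) summed to 142 to 1141 CPM in HG and 114 to 320 CPM in LG, and the macrophage markers (led by Lyz2 and C1qa) to 232 to 339 CPM in HG and 267 to 429 CPM in LG. The B and plasma cell markers (led by Ighm and Igkc) summed to 2.75 to 754 CPM in HG and 6.39 to 136 CPM in LG, with HG replicate 1 the highest; of the 4 tested, Cd79a fell. By edgeR 0 of 8 fibroblast markers passed (1 at an unadjusted p under 0.05; 0 by DESeq2 and limma-voom), 0 of 8 macrophage markers (0 unadjusted; 0 by either other tool) and 0 of 6 α-, δ- and PP-cell markers (1 unadjusted; 0 by DESeq2 and 1 by limma-voom). What part any of these cell types had in the rise of the 10 genes was not tested, and the acinar covariate does not settle the part of acinar cells.

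Total counts were 20516328 to 24905499 in HG libraries and 19543045 to 24949515 in LG libraries. At this depth the 10 genes had between 984 counts (Creld2 in LG replicate 4) and 59820 counts (Hspa5 in HG replicate 4). Over all genes, 2023 rose and 1831 fell, so that 52.5% of the genes that passed were higher in HG; with library size alone as the scaling the share was 37.8%. The authors' deposited table gives log2 fold changes from 0.53 (Sil1) to 1.36 (Sdf2l1) for the 10 genes.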

How the data were processed

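RNA of the 8 islet libraries was isolated with a micro column kit and made into cDNA libraries with a NEBNext Ultra RNA kit, per the labels' protocols. STAR 2.5, HTSeq 2 and DESeq2 (no version) are named for build mm10 (GRCm38), per the submitters' processing notes; for strand setting, annotation release and multi-mapped reads, nothing is given in the sources used here. The deposited table holds whole-number read counts per gene and library. Its deposited signal column is that count over a library-wide size factor, and the authors' FPKM is the count over gene length and a library-wide total. Deposited log2 fold changes and p-values are the authors' own comparison; of these, only log2 fold changes are printed.

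Differences were tested on counts in edgeR 4.0.16 (R 4.3.3): TMM scaling, filterByExpr (minimum count 10, minimum total 15; 15442 genes kept), a quasi-likelihood fit with group as its only term over all 8 libraries, and Benjamini-Hochberg adjustment over all genes tested, with a threshold of 0.05. CPM are counts over the TMM-scaled library size, log2 CPM used a prior count of 2, and intervals are 95%. For changes relative to Hspa5, Hsp90b1 or Hyou1 the gene's own count replaced the library size. At this depth 3 counts are 0.12 to 0.154 CPM, a floor for counting error alone. Between any 2 libraries the counts differed by a chi-square of at least 14.2 per gene, so none was a copy. The fits were tested on simulated data first.

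The labels number libraries 1 to 4 in each group without saying what a number stands for. Deviations from the group means correlated between same-numbered libraries at 0.101, 0.449, 0.404 and 0.475, all over 0.1 but only just for pair 1. LG replicate 1 correlated best with HG replicate 4. The numbers were used to compare same-numbered libraries and in an alternative fit with the replicate block. Adjusted p-values are from fits without the block unless it is named. Other alternatives were library size alone, RLE size factors, no filter, DESeq2 1.42.0, limma-voom (3.58.1), the acinar level as a covariate, and leaving out each library in turn. Members and gene lists were chosen with earlier results of these data known. All members, their cytosolic and mitochondrial counterparts, KDEL receptors and UPR genes are named whatever their result. From each other list at most 4 passing genes (smallest adjusted p first) and at most 2 that passed in the opposite direction are named, from cell type lists the 2 most abundant, and the 5 genes most like Hspa5; others were picked after their values were seen. Exon overlaps are from GENCODE M21 (GRCm38). There Sil1 shares 108 and 88 exon bases with the antisense genes AC147989.1 and AC147989.3, and Dnajb9 shares 14 with Mir5627. The result of 1 marker gene is not reported here.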

Additional observations from a re-analysis of the deposited data

Results flagged for a closer look

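In 3 of 20 groups of 4 libraries (10 genes in 2 groups each), 1 library stood so far from the other 3 that its gap, divided by the group's range, passed Dixon's critical value at the 95% level; chance gives about 1 in 20. HG replicate 2 stood above the other HG libraries for Sdf2l1 (0.877; 240 CPM, the others 189 to 196 CPM). LG replicate 2 stood above the other LG libraries for Hsp90b1 (0.871; 685 CPM, the others 596 to 607 CPM) and for Manf (0.873; 195 CPM, the others 155 to 160 CPM). Each of these genes passed the test with any one library left out.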

How the results depend on the processing

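All 10 genes kept their direction and passed under every other scaling, filter, tool and covariate tried on all 8 libraries and with any one library left out, and no gene of the ER and chaperone lists that passed changed sign. Some values near 0 that did not pass did change sign, among them Hsp90aa1 (-0.04 by library size alone), Ern1 (up to 0.05 with a library left out) and Hyou1 relative to Hspa5 (-0.001 without LG replicate 2). Leaving out each library in turn, 1617 to 2656 of all genes rose and 1382 to 2476 fell, with the highest counts without LG replicate 2; the members that passed stayed at 10, those that rose more than Hspa5 at 4 and those that rose less at 1. With the replicate block 2917 of all genes rose and 2862 fell, beside 2023 that rose and 1831 that fell without it. Among the genes of the ER and chaperone lists, the block added calls for Hspa8, Atf6, Ddit3, Sel1l, Dnaja2 and Dnajc19 and changed no other call. In the 4 libraries with the least acinar RNA, chosen after seeing the data and with 2 libraries a group, 320 genes rose and 99 fell over all genes, 2 members rose more than Hspa5 and 0 rose less; fewer samples were fitted there. The 10 genes had at least 984 counts in each library; what a greater depth or more libraries would change was not tested.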
